A study of Mus musculus with 4 samples.

Results

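The guanylate-binding proteins and the immunity-related GTPases are 2 families of interferon-inducible enzymes, and 9 of their genes were followed here in leukocytes of transplanted mouse lungs: Gbp2, Gbp3, Gbp4, Gbp5, Gbp7, Iigp1, Irgm1, Irgm2 and Igtp. The 9 genes were chosen by symbol among the 32285 genes of the count tables, and every symbol matched 1 gene. Left lungs of B6 mice were kept for 60 min at 4 °C and 45 min at 28 °C, transplanted into mice of the same strain and collected 2 h later. Immediately before surgery either vehicle or resolvin D1 was injected intravenously (RvD1, a mediator of the omega-3 fatty acid pathway; 200 ng for each mouse, dissolved in 200 µL of 1% ethanol). The treatment protocol in the labels says that recipient mice were dosed, whereas the design text says that the grafts were.

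CD45+ leukocytes were sorted, CD45 being the surface marker of all leukocytes, and the 4 groups were donor-derived cells after vehicle (vehicle donor), donor-derived cells after RvD1 (RvD1 donor), recipient-derived cells after vehicle (vehicle recipient) and recipient-derived cells after RvD1 (RvD1 recipient). Each group was 1 library from 2 pooled lungs. Cold and warm storage and reperfusion were common to all 4 groups, and no lung without transplantation is used here. How donor cells were told from recipient cells, whether both came from the same lungs, and the age and sex of the mice are not given in the sources used here. No group has a replicate library, so no test between conditions was run, each difference below compares the libraries named, and every interval is a 95% interval that covers counting error only.

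Both families are large GTPases that are switched on chiefly by interferon-gamma, and to a lesser degree by type I interferon. Guanylate-binding proteins coat vacuoles that hold microbes, and bacteria in the cytosol, and so open the way to lysis of the vacuole and to inflammasome activation. Immunity-related GTPases are of 2 kinds: effectors such as Iigp1, which load onto vacuoles, and regulators such as Irgm1, Irgm2 and Igtp (also named Irgm3), which sit on the cell's own membranes and keep the effectors inactive there. Among the guanylate-binding proteins, Gbp2 acts on vacuoles and on lipopolysaccharide of bacteria, Gbp5 promotes assembly of the NLRP3 inflammasome, and Gbp7 takes part in assembly of the phagosomal NADPH oxidase. In the lung they are best known from infection.

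The genes lie in a few tandem clusters on GRCm38 (mm10; positions from GENCODE M21). Gbp5 (chromosome 3, 142493978 to 142522344), Gbp7 (142530342 to 142550149), Gbp3 (142560026 to 142573209) and Gbp2 (142620602 to 142638008) stand in a row on the plus strand of chromosome 3. Gbp4 is on the minus strand of chromosome 5 (105115767 to 105139586), Irgm1 on the minus strand of chromosome 11 (48861968 to 48871683), and Igtp (58199556 to 58207591) and Irgm2 (58199618 to 58222782) overlap on the plus strand of chromosome 11. Igtp and Irgm2 share 162 exonic bases on the same strand, and Gbp4 shares 121 with its neighbours Gbp8 and Gbp9, so reads of these genes may have been split or dropped and their counts are uncertain to that degree. Iigp1 lies apart from them on another chromosome.

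Since several of the genes were lower together in the same cell types, their promoters are shown. RefSeq gives windows of 300 bases, 250 before and 50 after a start site (GRCm38.p6), and 7 of the 9 genes had 1 or more, with 8 windows in all; Gbp4 and Iigp1 are named only. A pair of interferon motifs was searched: the core of the interferon-stimulated response element, GAAA, any 2 bases, GAAA, on both strands (it reads TTTC, any 2 bases, TTTC when it lies on the strand not printed), and the gamma-activated site, TTCNNNGAA, which reads the same on both strands. Of the 8 windows, 7 held the first motif, against 3.44% of all 32851 windows of the table. The second was in 4, against 8.3% of all windows, and all 4 held both motifs, against 0.454%. The second Gbp3 window held neither. A match is a description of letters, not a binding site. Each stretch below runs on the gene's own strand from 10 bases before the first match, or from the start of the window, to the last base before the start site, with the matches in capitals.
Gbp2, chr3:142620594-142620662, plus strand: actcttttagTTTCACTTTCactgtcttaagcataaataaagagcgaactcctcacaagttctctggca
Gbp3, chr3:142559989-142560043, plus strand: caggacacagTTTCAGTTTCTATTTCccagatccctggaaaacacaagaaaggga
Gbp5, chr3:142496684-142496933, plus strand: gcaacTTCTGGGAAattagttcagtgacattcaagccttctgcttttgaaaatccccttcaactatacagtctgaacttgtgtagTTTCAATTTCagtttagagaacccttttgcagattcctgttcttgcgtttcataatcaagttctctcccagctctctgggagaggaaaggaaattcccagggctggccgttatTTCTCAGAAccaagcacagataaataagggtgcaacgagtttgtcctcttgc
Gbp7, chr3:142530220-142530335, plus strand: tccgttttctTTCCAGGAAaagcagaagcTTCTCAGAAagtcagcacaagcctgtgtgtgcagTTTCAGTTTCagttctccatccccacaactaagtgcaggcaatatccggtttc
Irgm1, chr11:48871421-48871460, minus strand: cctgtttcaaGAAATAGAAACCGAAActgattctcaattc
Irgm2, chr11:58214892-58214976, plus strand: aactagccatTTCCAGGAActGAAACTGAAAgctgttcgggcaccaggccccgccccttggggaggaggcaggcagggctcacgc
Igtp, chr11:58199501-58199555, plus strand: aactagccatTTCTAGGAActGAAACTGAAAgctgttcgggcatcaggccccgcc

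In Gbp3 and Irgm1 the long capital run is 2 overlapping matches of the response element. The response element of Gbp2 began 59 bases before the start site, that of Gbp7 53, that of Igtp 34, and that of Gbp5 lay farther out, at 165. These are RefSeq start sites, which differ from the GENCODE gene starts given above. The stretches of Irgm2 and Gbp5 end at 58214976 and 142496933, well inside GENCODE spans that begin at 58199618 and 142493978. That of Irgm2 also lies beyond the GENCODE end of Igtp (58207591). Igtp and Irgm2 carry the same arrangement, a gamma-activated site followed after 2 bases by a response element. Over 270 aligned bases without gaps, at an offset of 30 bases, their windows were 68.1% identical.

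After filtering, the libraries held 5532, 5009, 5830 and 7368 cells (donor cells first, then recipient cells, each with vehicle before RvD1, an order kept for every series of 4 values below), with a median of 7917.5, 6450, 5830 and 5392 unique molecular identifiers (UMIs) per cell. UMIs are counts of distinct RNA molecules. Pairs of libraries shared 4 to 15 cell barcodes. Cells were clustered and named from marker genes, and 8 classes held at least 100 cells in a library: T cells, NK cells, B cells, classical and nonclassical monocytes, neutrophils, dendritic cells and alveolar macrophages. Alveolar macrophages had that number in the vehicle donor library only (224 cells) and dendritic cells in both donor libraries only (205 and 121). Levels are counts scaled to the UMI total of the class (CPM). The file headers name Cell Ranger 7.0.1 for the RvD1 files and 6.1.1 for the vehicle files, so wherever RvD1 is set against vehicle, treatment and counting software cannot be told apart.

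T cells held the highest level of 6 of the 9 genes in all 4 libraries among these classes. Iigp1, the vacuole-loading effector, was at 73.1, 30.3, 180 and 132 CPM in T cells. In neutrophils, both monocyte classes, NK cells, dendritic cells and alveolar macrophages its level lay between 0 and 1.61 CPM in every library, and in B cells between 0.383 and 4.57. An Iigp1 UMI was found in 19.1%, 8.64%, 42.8% and 31.2% of T cells, against 0.232% to 0.891% of B cells. With every cell thinned to 1000 UMIs the T cell shares were 5.81%, 2.72%, 14.4% and 10.5%, and the highest B cell share was 0.224%. Median depths before thinning were 7480 to 9388 UMIs in T cells and 4642 to 6577 in B cells. Endothelial cells, a minor non-leukocyte population of these libraries with much Iigp1, had their marker genes at a summed 137, 77.5, 138 and 128 CPM in T cells. In B cells, where Iigp1 was at 0.383 to 4.57 CPM, the same markers were at 242, 115, 166 and 189 CPM. The part of endothelial RNA in the Iigp1 level of T cells was not tested.

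Igtp, a regulator, was at 109, 43.6, 171 and 115 CPM in T cells and at most 18.9 CPM in any other of these classes. Its partner Irgm2 was at 49.9, 25.6, 66.7 and 59.0 CPM in T cells, and neutrophils came next in the vehicle donor and both recipient libraries (28.4, 25.9 and 19.6 CPM), close to nonclassical monocytes in the recipient libraries (23.8 and 16.7 CPM). Irgm1 had another order. It was highest in classical monocytes of both vehicle libraries (51.2 CPM in donor and 76.1 in recipient cells, against 37.2 and 51.7 in T cells), while in both RvD1 libraries the intervals of the 2 classes overlapped (20.9 and 32.7 CPM against 19.1 and 31.6).

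Of the guanylate-binding proteins, Gbp2 was at 98.6, 36.5, 146 and 92.6 CPM in T cells, above every other class in each library. Gbp5 was at 72.7, 27.8, 135 and 112 CPM there, and in the RvD1 donor library its interval overlapped that of B cells (21.7 CPM). Gbp7 was at 92.7, 46.0, 137 and 99.0 CPM in T cells and at 63.6, 48.4, 71.7 and 51.9 CPM in NK cells. NK cells came next after T cells except in the RvD1 donor library. There the NK value was the higher, and the intervals of these 2 classes overlapped. Gbp4 was at 54.0, 24.9, 72.6 and 54.9 CPM in T cells and 33.05, 22.7, 38.4 and 24.9 in NK cells (overlapping in the RvD1 donor library). In neutrophils and monocytes it was at most 2.28 CPM. Dendritic cells of the vehicle donor library were uneven. The subcluster led by H2-Eb1 and Crip1 had 16.98 CPM (9.89 to 27.2, 17 UMIs). That interval overlapped those of B cell cluster 2 in every library (8.43 to 12.75 CPM). The dendritic subclusters led by Cst3 and by Ccl17 and Ccl22 had 0 and 1.76 CPM. Gbp3 was the most even: in the vehicle donor library T cells, NK cells, B cells and both monocyte classes lay between 22.6 and 29.9 CPM, and the highest value was in classical monocytes of the vehicle recipient library (49.9 CPM).

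**Figure D1:**
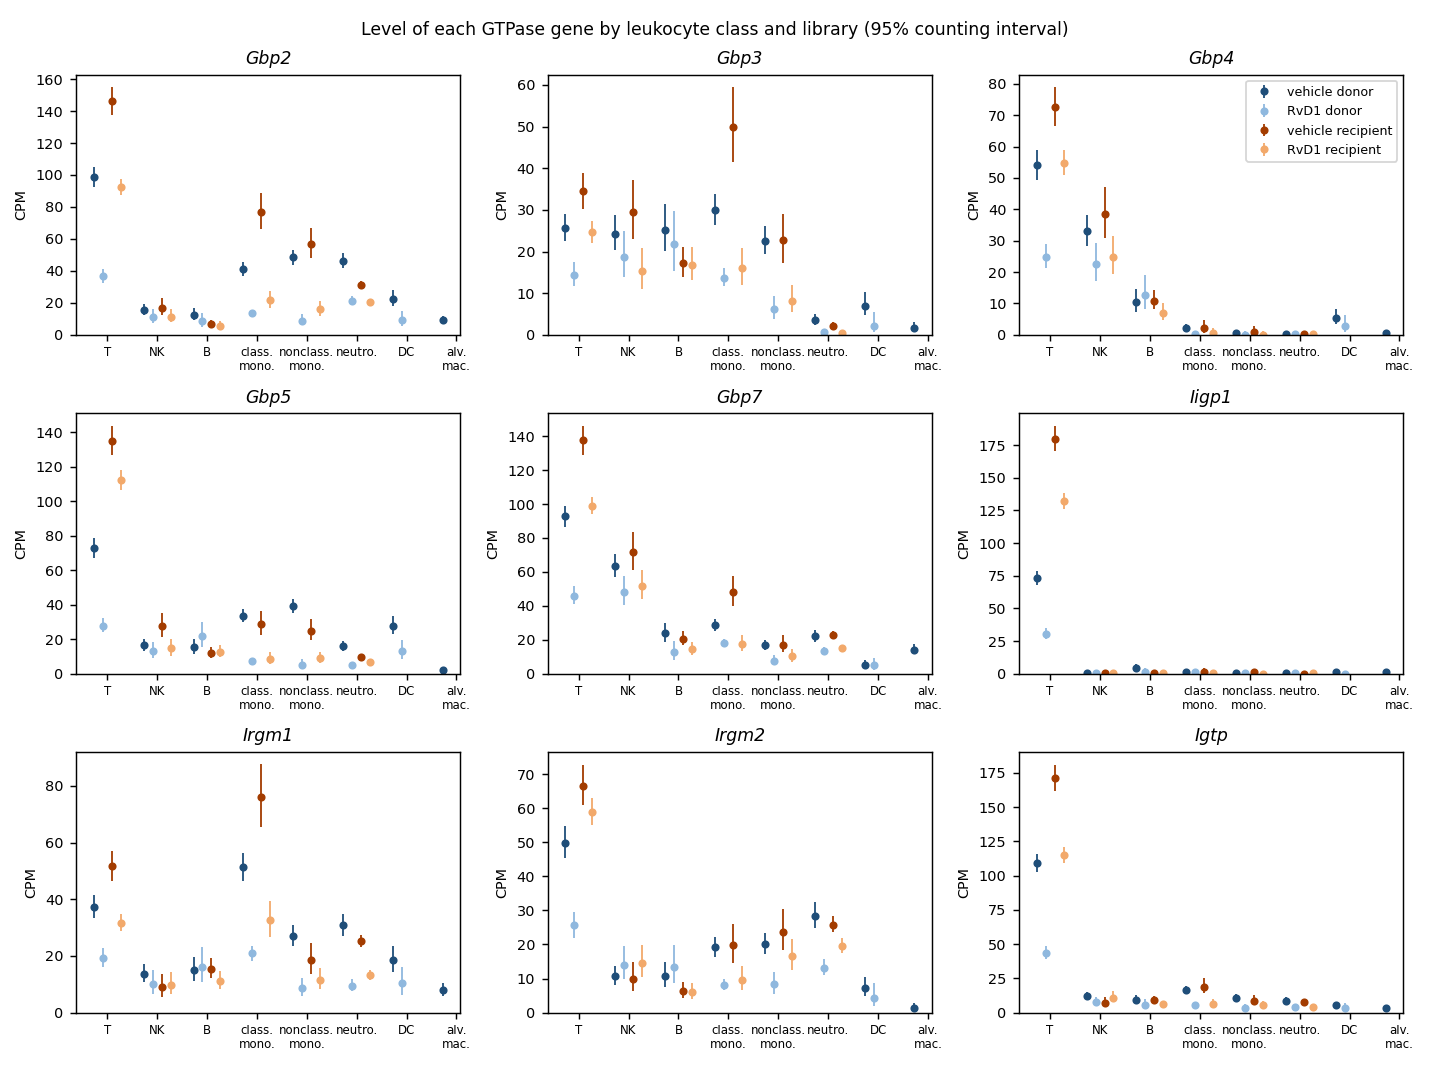
Level of each of the 9 genes in CPM (vertical axis, linear, from 0) in each class with at least 100 cells in the library (horizontal axis); each point is 1 library and each bar its 95% Poisson counting interval. T cells stand highest for most genes, Iigp1 is close to 0 outside T cells, and the RvD1 points lie under the vehicle points of the same origin in most classes, most widely in monocytes.

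For RvD1 against vehicle, ratios were taken within donor cells and within recipient cells, which are separate libraries. Genes with 100 or more UMIs, both libraries of a contrast added, are called described; they were counted where both contrasts differed 1.5-fold or more with the same sign. Classical monocytes, the inflammatory monocytes that enter tissue from blood, showed it most fully: 5 of 5 described genes (Gbp2, Gbp3, Gbp5, Gbp7 and Irgm1) were lower with RvD1 in both origins, against 2.65% of all 5702 genes described, and none was higher, against 0.982%. The median log2 ratio of the 5 was -1.30 in donor and -1.64 in recipient cells, and that of all described genes was -0.05 and -0.06.

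Gbp2 was at 41.1, 13.5, 76.9 and 21.8 CPM in classical monocytes. Both vehicle libraries were above both RvD1 libraries with no overlap of intervals, and the log2 ratio was -1.61 in donor cells (-1.88 to -1.34) and -1.82 in recipient cells (-2.23 to -1.42). Gbp5, the inflammasome promoter, was at 33.4, 7.23, 29.0 and 8.77 CPM. Its log2 ratio was -2.21 in donor cells (-2.57 to -1.86). Recipient cells had -1.73 (-2.40 to -1.08). Irgm1 was at 51.2, 20.9, 76.1 and 32.7 CPM, and here too both vehicle values exceeded both RvD1 values (log2 ratios -1.30 and -1.22). Gbp3 was at 29.9, 13.7, 49.9 and 16.02 CPM, and Gbp7 at 28.7, 17.9, 47.9 and 17.5. Irgm2 and Igtp had too few UMIs in recipient monocytes to be described in both origins. In donor monocytes their log2 ratios were -1.25 and -1.61. Gbp4 and Iigp1 had at most 20 UMIs in any of these libraries and are not compared. Classical monocytes numbered 580, 769, 170 and 284 cells, and the summed level of 9 genes was 223, 87.8, 322 and 114 CPM.

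Nonclassical monocytes, which patrol vessel walls, numbered 530, 256, 195 and 346 cells, and 2 genes were described in both origins. Of these Gbp2 was at least 1.5-fold lower (1 of 2, against 4.91% of all genes described) and none was higher (1.91%). Gbp2 was at 48.5, 8.86, 56.8 and 16.1 CPM, with log2 ratios of -2.45 (-3.05 to -1.91) and -1.82 (-2.30 to -1.36). Irgm2, the second gene, was at 20.01, 8.25, 23.8 and 16.7 CPM, and in recipient cells its interval held no difference (-1.05 to 0.03). In donor cells alone 7 genes were described, of which Gbp5 had the lowest ratio (39.0 against 5.19 CPM, log2 ratio -2.91, -3.70 to -2.21). Of this class, cluster 16 also carried neutrophil transcripts, and over the whole class neutrophil markers summed to 9999.7, 12129, 30735 and 9028.4 CPM. The part of those transcripts in the result was not tested; in cluster 10 alone, the other cluster of the class, the 9 genes summed to 209, 52.9, 167 and 69.5 CPM.

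In neutrophils 4 of 6 described genes (Gbp2, Gbp7, Irgm1 and Igtp) were lower with RvD1 in both origins, against 9.35% of all 6458 described genes, and none was higher, against 4.89%. Irgm1 was at 30.8, 9.53, 25.2 and 13.2 CPM, both vehicle libraries above both RvD1 libraries, with log2 ratios of -1.69 (-2.05 to -1.34) and -0.93 (-1.18 to -0.69). Gbp2 was at 46.4, 21.3, 31.3 and 20.2 CPM (log2 ratios -1.12 and -0.63). Igtp was at 8.68, 4.16, 7.80 and 3.84 CPM, which was 41 to 148 UMIs per library. Gbp7 was at 22.0, 13.4, 22.7 and 15.05 CPM, and its recipient ratio of -0.59 lay close to the 1.5-fold limit. Gbp5 and Irgm2 were past it in donor cells (log2 ratios -1.60 and -1.11) but not in recipient cells (-0.44 and -0.40). For Gbp7 and Igtp the donor and recipient intervals overlapped; whether the 2 origins differ was not tested.

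Neutrophils of the 2 treatments lay mostly in different clusters: clusters 5 and 7 held mostly vehicle cells, and clusters 0 and 6 mostly RvD1 cells. Cluster 7 (555, 67, 752 and 22 cells), led by Ccl4, Spp1 and Fnip2, was placed among neutrophils by a naming rule settled after the clusters had been seen. Without it the count was 3 of 5, since donor Igtp no longer had 100 UMIs, and the ratios of Irgm1 were -1.90 and -0.88. Single clusters with at least 50 cells in both libraries did not all show the difference. The summed level was lower with RvD1 in cluster 0 in both origins (107 to 44.9 and 92.4 to 42.5 CPM). In clusters 5 and 6 it was lower in donor cells (112 to 46.3 and 86.9 to 49.9 CPM), while the recipient intervals held no difference (log2 ratios -0.29, -0.79 to 0.18, and 0.03, -0.53 to 0.63). Cluster 7 could be compared in donor cells only (133 to 38.3 CPM) and cluster 11 in recipient cells only (108 to 72.7 CPM). In cluster 4, led by Retnlg, Ngp and Mmp8 of less mature neutrophils, the intervals of the 2 treatments overlapped in both origins (37.1 and 38.5 CPM in donor, 48.7 and 41.8 in recipient cells).

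One neutrophil cluster held a large part of the signal. Cluster 13 was led by interferon-stimulated genes (Rsad2, Slfn4, Isg15, Ddx60), and the 9 genes were open to use in the clustering, so its level against the other neutrophils is a description. It made up 6.44%, 5.98%, 6.20% and 6.85% of neutrophils and carried 32.9%, 28.1%, 34.0% and 39.1% of their UMIs of the 9 genes. The summed level was 896, 313, 670 and 461 CPM in the cluster and 112, 51.9, 88.1 and 52.1 CPM in the other neutrophils. Within cluster 13 the log2 ratio of RvD1 to vehicle was -1.52 for donor cells (-1.77 to -1.26), and for recipient cells it was -0.54 (-0.71 to -0.37). Irgm1 was at 197, 75.0, 192 and 108 CPM in the cluster, and Igtp at 54.7, 23.3, 49.9 and 24.5. Gbp5 stood apart by origin: donor cells had 50 UMIs after vehicle and 2 after RvD1, whereas recipient cells had 32 and 34. Iigp1 had no UMI in the cluster in any of the 4 libraries, which allows up to 3 counts in each.

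**Figure D2:**
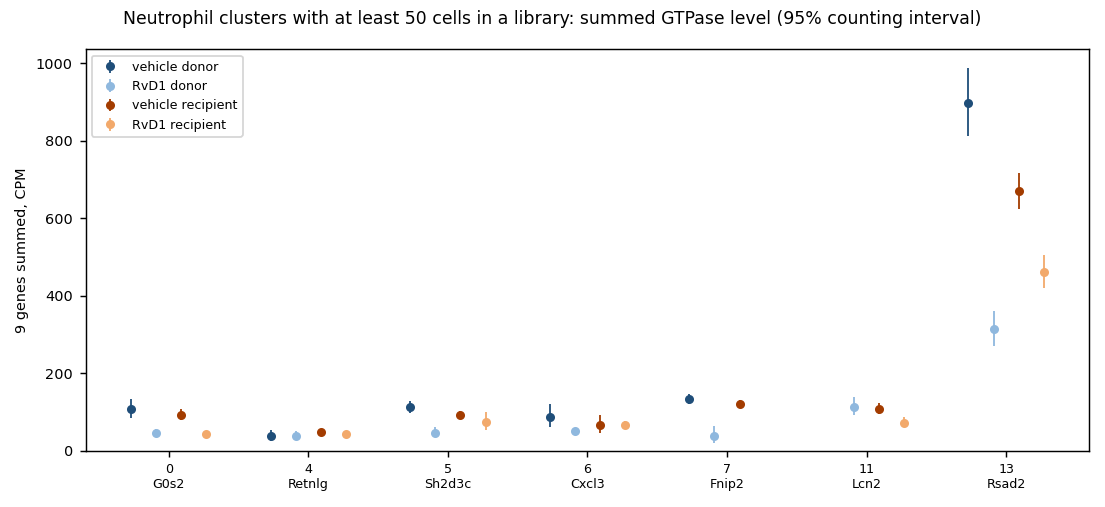
Summed level of the 9 genes in CPM (vertical axis, from 0) in each neutrophil cluster (horizontal axis, cluster number and a leading gene), for libraries with at least 50 cells of the cluster; bars are 95% Poisson counting intervals. Cluster 13 lies at 313 to 896 CPM and no other cluster is above 133 CPM.

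**Figure D3:**
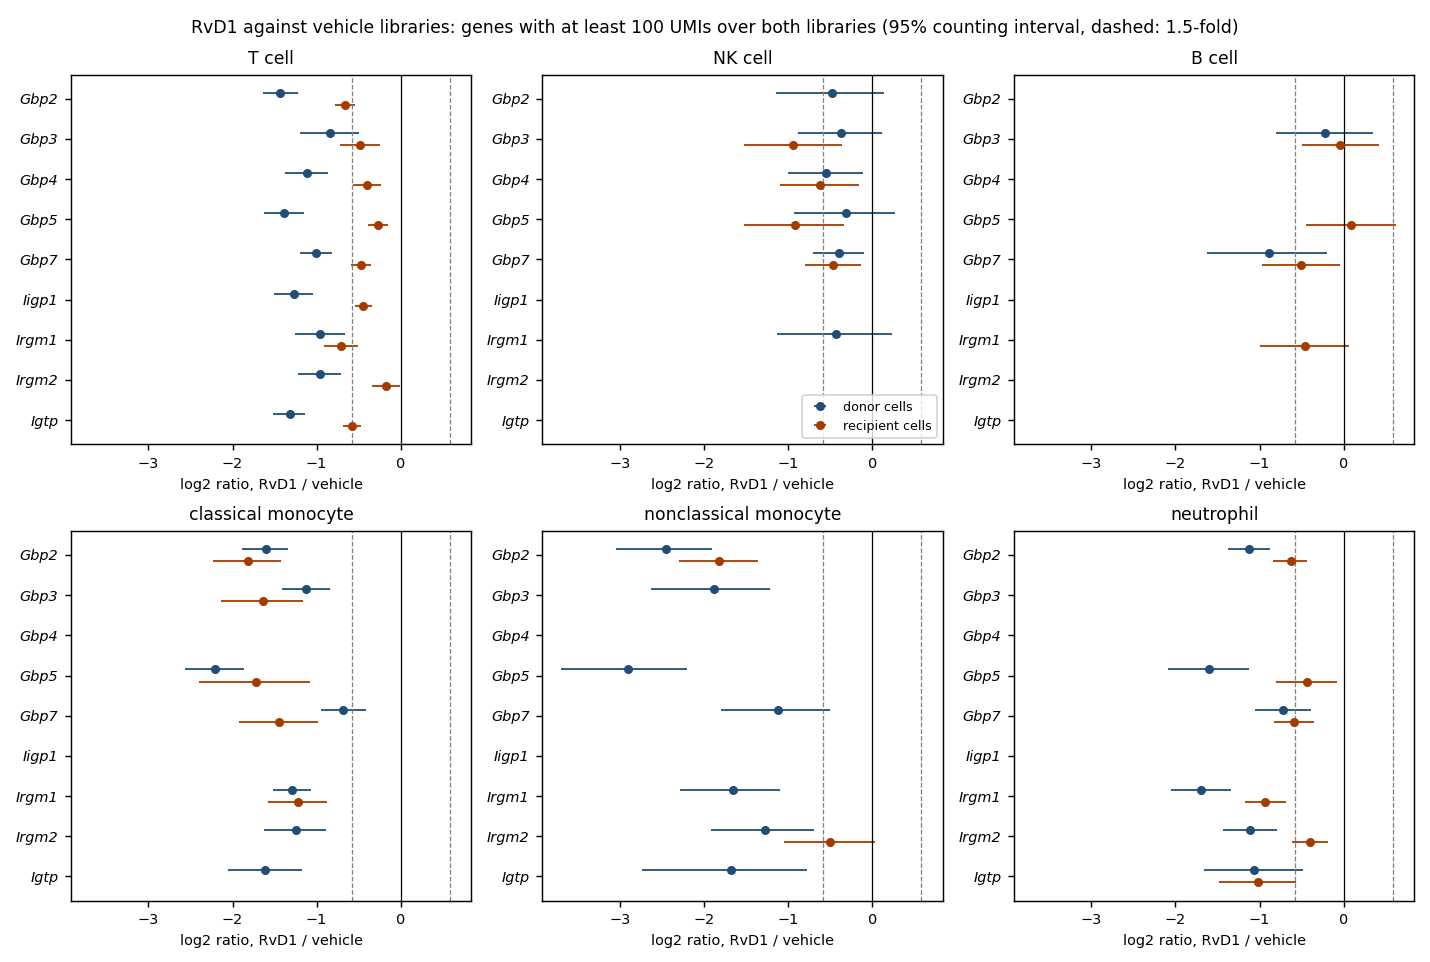
Log2 ratio of RvD1 to vehicle (horizontal axis) for each gene with at least 100 UMIs over both libraries (vertical axis), in donor (blue) and recipient cells (brown) of 6 classes; bars are 95% counting intervals and dashed lines mark 1.5-fold. In classical monocytes and neutrophils all points lie left of 0, and in T cells the donor points lie farther left than the recipient points.

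In T cells all 9 genes were described. Gbp2 and Irgm1 were lower by 1.5-fold or more with RvD1 in both origins (2 of 9, against 1.84% of all 8587 genes described), and none was higher (1.13%). The donor ratios were past 1.5-fold for all 9 genes, from -1.43 (Gbp2, -1.64 to -1.23) to -0.84 (Gbp3, -1.19 to -0.49). The recipient ratios ran from -0.71 (Irgm1, -0.91 to -0.51) to -0.18 (Irgm2, -0.34 to -0.01). The medians were -1.12 and -0.47, beside -0.12 and -0.08 for all described genes. For the 9 genes summed, the level was 613, 268, 995 and 721 CPM, and no intervals overlapped.

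The makeup of the T cells differed between libraries, and its part in the class level was not tested; levels within clusters are given beside it. Cluster 8 (CD4 T cells) and cluster 9 (CD8 T cells) were both led by genes that include Lef1, a gene of naive T cells. Together they had the highest levels, though in the RvD1 donor library they carried only 16.03% and 23.3% of the T cells' UMIs of the 9 genes. Cluster 8 made up 16.9%, 9.14%, 38.6% and 44.8% of T cells and cluster 9 made up 20.5%, 11.6%, 41.0% and 33.6%. Cluster 12 (CD8 T cells led by Ccl5) and cluster 17 (gamma-delta T cells, led by Ramp3, Icos and Rora) were more frequent among donor cells, at 33.3%, 35.3%, 12.03% and 8.29% and at 17.4%, 27.2%, 1.27% and 2.93%. Within cluster 8 the summed level was 1141, 483, 1300 and 894 CPM, and within cluster 9 it was 1026, 434, 1002 and 719 CPM. It was 279, 201.3, 259 and 219 CPM in cluster 12. Cluster 17 had 158, 120 and 102 CPM in the 3 libraries with at least 50 of its cells. Cluster 14, led by Ctla4, Tox, Tnfrsf4 and Ikzf2, lay between (540, 389, 891 and 648 CPM).

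Within clusters 8, 9 and 14 the summed level was also lower with RvD1 in both origins. The log2 ratio of the summed level in cluster 8 was -1.24 (-1.42 to -1.06) among donor cells and -0.54 (-0.60 to -0.48) among recipient cells, and -1.24 (-1.39 to -1.09) and -0.48 (-0.55 to -0.41) in cluster 9. The RvD1 donor values there rest on 74 and 94 cells. In cluster 12 the ratio was smaller, -0.47 (-0.64 to -0.30) in donor cells, and the recipient interval held no difference (-0.50 to 0.01). The ratios in cluster 14 were -0.47 and -0.46. In cluster 8 Igtp was at 200.9, 69.0, 216 and 151 CPM, and Gbp2 at 186, 67.4, 166 and 97.8. In both genes the 2 vehicle libraries were above the 2 RvD1 libraries.

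**Figure D4:**
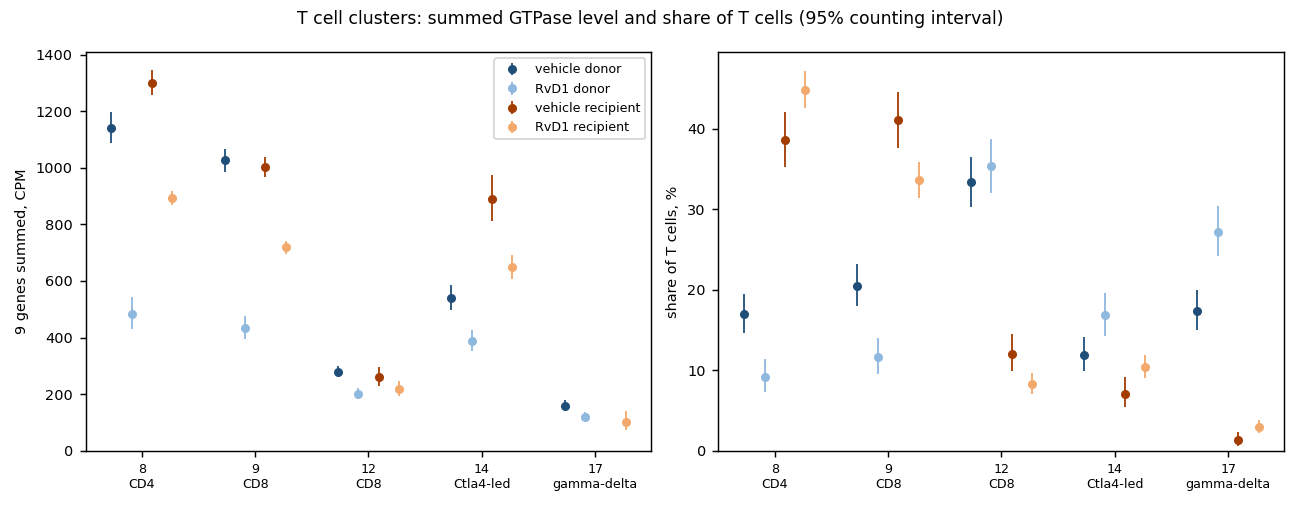
Left: summed level of the 9 genes in CPM (vertical axis, from 0) in each T cell cluster, for libraries with at least 50 cells of it. Right: share of the library's T cells in each cluster, in percent. Bars are 95% counting intervals; clusters 8 and 9 have the highest levels and are the larger part of recipient T cells, while clusters 12 and 17 are the larger part of RvD1 donor T cells.

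NK cells and B cells had no gene at least 1.5-fold lower or higher in both origins. In NK cells 4 genes were described (Gbp3, Gbp4, Gbp5 and Gbp7), and the shares of all described genes were 1.43% lower and 0.975% higher. The median log2 ratio of the 4 was -0.38 in donor and -0.77 in recipient cells, beside -0.10 and -0.05 for all described genes. The recipient median was thus past 1.5-fold and the donor median was not. Gbp4 and Gbp7 had intervals below 0 in both origins: for Gbp7 the log2 ratio was -0.39 among donor cells (-0.70 to -0.09) and -0.46 among recipient cells (-0.80 to -0.13). In B cells 2 genes were described (Gbp3 and Gbp7), and the shares were 1.12% lower and 0.626% higher. Their median log2 ratios were -0.55 and -0.27, beside -0.22 and -0.10 for all described genes. The ratios of Gbp3 were -0.22 (-0.81 to 0.35) and -0.04 (-0.50 to 0.42). The NK ratios of the summed level were -0.38 (-0.55 to -0.21) and -0.45 (-0.64 to -0.26), and the B cell ratios -0.15 (-0.40 to 0.10) and -0.29 (-0.49 to -0.09). Dendritic cells were compared in donor cells only. There Gbp2 (22.7 against 9.21 CPM) and Gbp5 (107 against 24 UMIs, log2 ratio -1.10), 2 of 2 described genes, were at least 1.5-fold lower with RvD1, against 9.02% of all genes described. The dendritic subclusters of the vehicle donor library differed in the summed level (208 CPM in the 58 cells led by H2-Eb1 and Crip1, 21.3 in 57 cells led by Cst3, and 58.8 in 60 cells led by Ccl17 and Ccl22). In the RvD1 donor library these held 31, 41 and 28 cells, too few for a level of their own, and the part of this makeup in the ratios was not tested.

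Recipient and donor cells were compared within each treatment, so each of these ratios lies within 1 Cell Ranger version, and they use the same 4 libraries as the ratios above. In T cells Gbp5, Iigp1 and Igtp were at least 1.5-fold higher in recipient than in donor cells under both treatments (3 of 9, against 1.24% of all 8678 genes described). None was lower, against 10.8%. Iigp1 had log2 ratios of 1.30 (1.16 to 1.44) with vehicle and 2.12 (1.92 to 2.34) with RvD1, Gbp5 of 0.89 and 2.01, and Igtp of 0.65 and 1.40. The other 6 genes had ratios of 0.42 to 0.57 with vehicle and 0.72 to 1.34 with RvD1, all with intervals above 0. All described genes had medians of -0.22 and -0.18, and ribosomal protein genes took up 23.0%, 28.0%, 34.1% and 35.9% of T cell UMIs. When the medians of ratios, or a total without mitochondrial and ribosomal genes, set the scale, all 9 genes were past 1.5-fold.

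The summed ratios were smaller within clusters 8 and 9. In cluster 9 of the vehicle libraries the summed level did not differ beyond counting error between recipient and donor cells (log2 ratio -0.03, -0.11 to 0.04), and in cluster 8 the ratio was 0.19 (0.10 to 0.27). With RvD1 the ratios were 0.73 (0.58 to 0.87) and 0.89 (0.72 to 1.06). Of the 9 genes under vehicle, Iigp1 alone had an interval above 0 within both clusters, with ratios of 0.58 (0.38 to 0.79) in cluster 8 and 0.51 (0.30 to 0.72) in cluster 9. Gbp7 (0.33, 0.10 to 0.57) and Irgm1 (0.39, 0.0016 to 0.80) were also higher in recipient cells of cluster 8, and Gbp2 and Gbp4 were lower in those of cluster 9 (-0.25 and -0.31). In cluster 14 the summed level was higher in recipient cells, by 0.72 (0.54 to 0.90) with vehicle and 0.74 (0.57 to 0.91) with RvD1.

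**Figure D5:**
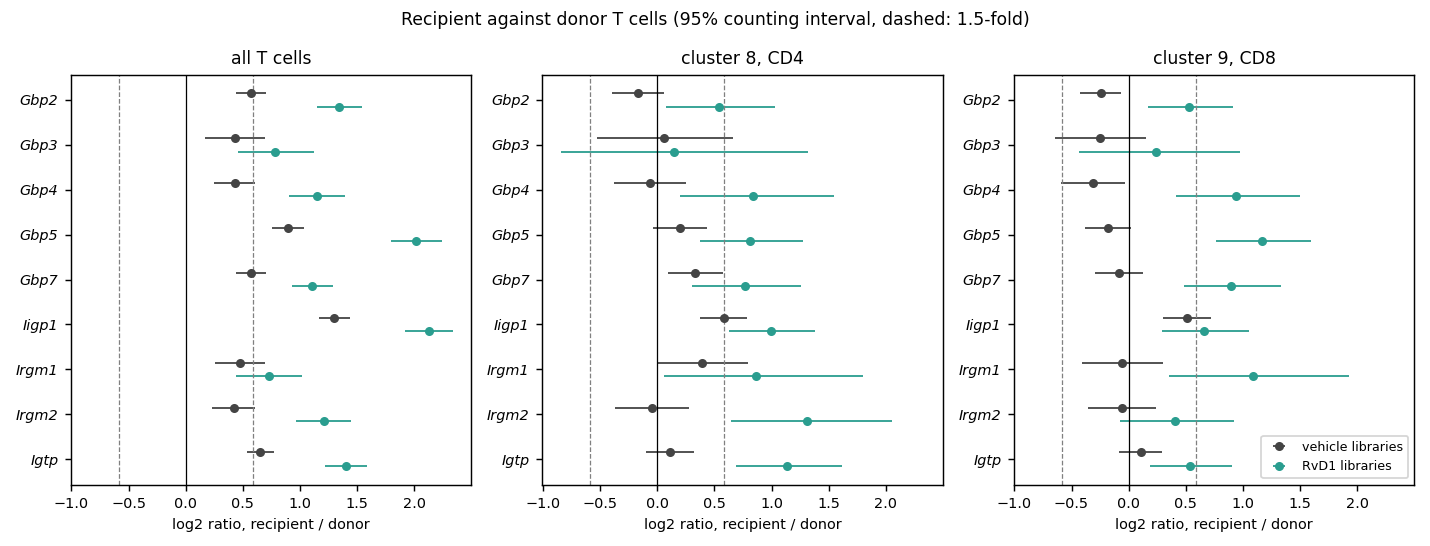
Log2 ratio of recipient to donor cells (horizontal axis) for each gene (vertical axis) in all T cells and within clusters 8 and 9, in vehicle (dark grey) and RvD1 libraries (green); bars are 95% counting intervals and dashed lines mark 1.5-fold. The grey points lie right of 0 in all T cells; within the clusters most lie between -0.31 and 0.39, and Iigp1 lies at 0.58 and 0.51.

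In classical monocytes Gbp2 was at least 1.5-fold higher in recipient than in donor cells under both treatments (log2 ratios 0.91 and 0.69), 1 of 6 described genes against 0.3% of all, and none was lower (0.845%). In neutrophils none of 5 was lower (3.68% of all described genes) or higher (1.37%) in both. Gbp5 went opposite ways there, -0.76 (-1.10 to -0.42) with vehicle and 0.40 (-0.09 to 0.91) with RvD1, though the second interval held no difference. In NK and B cells and nonclassical monocytes fewer than 3 genes were described in both and no count is given.

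Other genes of the pathway were taken as whole lists, and their counts are to be read against the shares of all described genes lower with RvD1 in both origins: 9.35% in neutrophils, 2.65% in classical monocytes and 1.84% in T cells. A single gene of a list in neutrophils is near that share and is not a result about the list. Among type I and type II interferon receptors and their signalling genes, 15 of 16 were described in neutrophils and 1 was lower with RvD1 in both origins (Socs1). In classical monocytes 3 of 14 described were lower in both origins, Stat2 and Irf1 among them, against 2.65% of all described genes. In T cells none of 16 was lower, and none was higher in neutrophils, classical monocytes or T cells. The median log2 ratios in donor and recipient cells were -0.10 and -0.01 in neutrophils, -0.28 and -0.09 in classical monocytes, and -0.29 and -0.15 in T cells. Ifngr1, a chain of the interferon-gamma receptor, was at 497 CPM in classical monocytes of the RvD1 donor library and 395 in the vehicle donor library. These values cover donor cells and 1 receptor chain only, and a part of the receptor in the levels of the 9 genes was not tested. Interferon-gamma targets outside the 2 families were lower in 3 of 12 cases in neutrophils and 3 of 14 in classical monocytes, each time Nlrc5, Tap1 and Parp14, and in 0 of 13 in T cells. B2m, which pairs with class I molecules, had log2 ratios of -0.53 and -0.08 in classical monocytes and 0.02 and -0.14 in T cells. The genes named as lower in these lists were picked after their values were seen.

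Type I interferon targets were lower in 3 of 15 cases in neutrophils (Rsad2, Oasl1 and Usp18), 2 of 13 in classical monocytes (Rsad2 and Rtp4) and 1 of 11 in T cells (Ifit1). Isg15, a ubiquitin-like modifier, went the other way in recipient neutrophils, at 347 CPM with RvD1 and 206 with vehicle. Of the ubiquitin-like conjugation genes that load the GTPases onto vacuoles, 1 of 12 was lower in neutrophils (Gabarapl1) and none in classical monocytes (12 described) or T cells (13 described). Of the 9 genes of cytosolic sensing and pyroptosis, Aim2 was lower and Il18 higher in neutrophils, and Casp4 was lower in classical monocytes. In nonclassical monocytes 4.91% of all described genes were lower in both origins. There 3 of 10 type I interferon targets were lower (Rsad2, Oasl2 and Rtp4). Of the interferon-gamma targets outside the 2 families, 2 of 11 were lower (Nlrc5 and Parp14). Irf9 (1 of 15 signalling genes) and Nlrp3 (1 of 9 sensing and pyroptosis genes) are single genes and not results about their lists. In NK and B cells no gene of these lists was lower, against 1.43% and 1.12% of all described genes. Interferon-gamma itself was measured almost only in NK cells (29.1, 35.2, 22.2 and 32.9 CPM) and T cells (19.5, 16.5, 2.73 and 3.07 CPM). The intervals of its level overlapped between RvD1 and vehicle within each class and origin. That overlap does not show equal levels, nor that the interval of a ratio holds 0. For NK cells the log2 ratios of RvD1 to vehicle were 0.27 in donor and 0.57 in recipient cells. In recipient NK cells Ifng had 52 UMIs with vehicle and 90 with RvD1. Their level intervals, 16.6 to 29.1 and 26.5 to 40.5 CPM, overlapped only narrowly. Recipient T cells, with the higher levels of the 9 genes, had less Ifng RNA than donor T cells.

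The relatives of the 9 genes were measured less well. In T cells Gbp6 was lower with RvD1 in both origins (44.5 to 14.8 and 71.6 to 36.0 CPM), 1 of 3 described of the other guanylate-binding proteins. Ifi47, another immunity-related GTPase, was lower in classical monocytes in both origins (44.4 to 25.7 and 64.0 to 35.1 CPM), 1 of 4 described of its list. Gbp8 and Gbp9 had log2 ratios of -0.42 and -0.64 in donor T cells and -0.45 and -0.15 in recipient T cells. Among T cells, Gbp6 and Gbp10 (2 of 4 described) and Tgtp1 and Ifi47 (2 of 7) were higher in recipient than in donor cells. So were 5 of 12 type I interferon targets (Ifit1, Ifit3, Usp18, Rtp4 and Zbp1), all under both treatments. The share of all described genes was 1.24%. Of 13 interferon-gamma targets outside the 2 families, 0 were higher and 1 was lower (10.8% of all described genes). Their median log2 ratios were -0.07 with vehicle and -0.25 with RvD1, beside -0.22 and -0.18 for all described genes. Of the signalling genes 1 of 16 was higher. Tgtp1 and the type I targets named here were picked after their values were seen.

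Across 27 profiles (8 classes by library, each with at least 100 cells), the summed level was ranked beside 9571 genes with at least 1000 UMIs. Among the 10 genes most like it by Spearman's rho were Ifi47 (0.855), Dtx3l (0.836), Nlrc5 (0.825), Parp14 (0.813), Ifit2 (0.792), Ubn1 (0.777), Ifi208 (0.777), Hdgfl3 (0.773) and Socs1 (0.757). Among the 9 genes themselves, rho over the 36 pairs had a median of 0.62. It was highest between Gbp7 and Igtp (0.85) and between Gbp2 and Irgm2 (0.81), and lowest between Gbp2 and Gbp4 (0.12). These profiles share libraries, depth and cell classes, so the values are descriptions.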

How the data were processed

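CD45+ sorted lung cells were profiled with the 10x 3' v3 kit, per the labels' protocols. The authors deposited unnormalized UMI counts for each gene in each barcode, written by Cell Ranger 6.1.1 (vehicle) or 7.0.1 (RvD1), per the file headers; mm10 and Seurat 4.0.0 are named in the submitters' processing notes. Whether introns were counted is not stated in the sources. The 9 genes and the gene lists were chosen with earlier results of these data known.

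Cells with under 200 genes or over 10% mitochondrial UMIs, and called doublets (1.49% to 3.35% per library), were left out. The rest were clustered with scanpy 1.11.5 (2000 variable genes per library, 30 principal components, 15 neighbours, Leiden resolution 1) and named from marker genes. The naming rule was changed 2 times after the clusters had been seen, before any ratio of the 9 genes was computed. The last version (leading genes detected in at least 25% of cells, fold with a pseudocount of 1 per 10000 UMIs) placed cluster 7 among neutrophils and left cluster 24 unnamed.

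Counts were summed per class and library and divided by the class total (CPM). Levels have exact Poisson intervals, ratios exact binomial intervals and shares exact Clopper-Pearson intervals. A class needed 100 cells per library and a gene 100 UMIs over both; a library at 0 was set to 3 counts. Named genes are the 9 members, up to 4 genes of each list by UMI total, and the 10 genes most like the summed level; others are marked as picked after seeing values. 1 gene that this rule names is not reported here. Alternatives covered filtering, doublets, scaling, UMI minimum, thinning, weighting, clustering and intron length; within-cluster ratios and leaving out clusters 7 and 16 were added after seeing the data. Totals per library were 42199775 to 61294707 UMIs. Scripts were tested on simulated data.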

Additional observations from a re-analysis of the deposited data

Results flagged for a closer look

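Endothelial-like cells, which a CD45 sort should remove, were left in all 4 libraries (31, 28, 19 and 66 cells) and are outside the leukocyte comparisons. Their Iigp1 level was 1329 CPM in the vehicle donor, 1018 in the RvD1 donor, 640.5 in the vehicle recipient and 484.6 in the RvD1 recipient library, above every leukocyte class. With so few cells in each library, no ratio between libraries is given.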

How the results depend on the processing

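Over 14 alternatives, 1389 of 1436 recomputed values stayed within the counting interval of the reported value, 47 moved outside it and 0 reversed a called direction. Of the called values, 719 of 743 stayed past 1.5-fold. The moves were uneven: 10 of 34 values moved with thinning to 1000 UMIs and 11 of 119 with each library clustered alone. Median-of-ratios scaling moved 10 of 130, and leaving mitochondrial and ribosomal genes out of the total moved 9 of 130. Counts of genes past 1.5-fold in both contrasts changed as follows. Without a filter on cells, the count was 2 for nonclassical monocytes (lower with RvD1) and 0 for classical monocytes (higher in recipient cells). With doublets kept, nonclassical monocytes had 3. Median-of-ratios scaling gave 1 in T cells lower with RvD1 and 9 higher in recipient cells. Leaving mitochondrial and ribosomal genes out of the total gave 9 in T cells and 2 in classical monocytes, both higher in recipient cells. A minimum of 50 UMIs gave 5 in nonclassical monocytes lower with RvD1 and 1 in B cells lower in recipient cells, and a minimum of 200 gave 2 in classical monocytes lower with RvD1. Thinning to 1000 UMIs gave 0 in neutrophils and both monocyte classes for the counts lower with RvD1, and 0 in classical monocytes for that higher in recipient cells, since few genes then kept 100 UMIs. The mean of the cells' own CPM gave 5 in T cells higher in recipient cells and 2 in NK cells lower with RvD1. Leiden resolution 2 gave 3 in classical and 2 in nonclassical monocytes lower with RvD1. No paired analysis was possible because each group is 1 library. The minimum of 100 UMIs was a choice, and it sets how many genes are counted in the classes with few cells.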
